A study of Homo sapiens with 12 samples.

Results

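The 45 genes described here are long-known androgen-induced genes of the prostate, listed by symbol and lying outside the kallikrein, lipid and immunophilin families. All 45 symbols matched an Ensembl identifier, out of 63677 gene identifiers counted per sample. They were followed in LNCaP cells, an established human prostate cancer line that grows in response to androgen. An engineered nuclease (TALEN) had removed the start codon of Bag-1L, the longest protein made from the BAG1 gene and a cochaperone, and the resulting line (Bag-1L KO) was set beside a TALEN control line. Both lines were grown in full medium with fetal bovine serum (FM), or first kept for 72 h in charcoal-treated serum, which is poor in hormone, followed by 16 h with the vehicle ethanol (EtOH) or with dihydrotestosterone (DHT) at 10 nM. This gave 12 samples in 6 groups, control and KO in each of EtOH, DHT and FM, with 2 biological replicates per group. The KO line was isolated as a single clone, so that knockout and clone cannot be told apart. The p-values measure only the spread between replicates, estimated per gene over all 6 groups together.

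Androgens are steroid hormones that enter the cell and act in the nucleus, where they raise transcription through androgen response elements that often lie far from the genes they serve. In luminal prostate cells the genes they induce make up much of the secretory programme: transporters, enzymes that build sugar chains, vesicle GTPases, kinases and scaffolds, transcription factors that pass the signal on, and keratins of the luminal cytoskeleton. The 45 genes were sorted into 5 role lists on this basis, with 8 genes of transport and metabolism, 9 of protein turnover and membrane traffic, 12 of kinases, receptors and signalling, 9 of transcription and chromosome and 7 of keratins, adhesion and cytoskeleton.

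The DNA around the gene starts was searched for the androgen response element, since it is the sequence by which a gene could be reached directly. The full palindromic element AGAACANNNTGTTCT, which reads alike on both strands, was searched within 50 kb of the gene start on GRCh37. It was found in 0 of the 45 genes, in 2 of 54 other androgen-responsive genes and in 308 of 19488 protein-coding genes (1.58%). At so low a share, 0 of 45 does not set these genes apart. No match says only that these letters are not in this window. A single arm of it, AGAACA on either strand, was looked for in the 250 bases before RefSeq gene starts (GRCh38.p14), where 33 of the 45 genes had an entry, with 58 start sites in all. It was present in 5 of the 58 windows (8.62%) and in 12.4% of all 35116 windows. These 5 windows are shown with 30 bases each, 5′ to 3′ on the strand of the gene, the arm in capitals, because they are the only matches among these 33 genes.
LIFR, chr5:38557468-38557497 (GRCh38.p14, minus strand): tgcaaaattaattgtgccgaagAGAACAcc
IQGAP2, chr5:76547342-76547371 (GRCh38.p14, plus strand): gcattctcttggTGTTCTggaatgtccatt
TSC22D1, chr13:44474418-44474447 (GRCh38.p14, minus strand): tcatagtattttTGTTCTctttgaagtaat
PMEPA1, chr20:57710789-57710818 (GRCh38.p14, minus strand): acctgaagaatgTGTTCTtgtagcactcct
RPS6KA3, chrX:20266967-20266996 (GRCh38.p14, minus strand): cgcggcggtcgcTGTTCTgctgggagcggg
A gene can have several start sites, some of them inside the gene, so that a window need not precede its first start. The arm was no more frequent here than among all windows. The genes with such a window ranged from PMEPA1, which DHT raised 4.05-fold in control cells, to RPS6KA3, which did not pass the test. A link between the arm and the response was not tested. MAF and SLC45A3, strong responders without the arm, are shown for contrast with their 250 bases before the start. MAF holds a TATA box (TATAAA, in capitals) 30 bases before its start, a motif found in 9 of the 58 windows and in 10.7% of all windows, searched on both strands. SLC45A3 has neither motif.
MAF, chr16:79600738-79600987 (GRCh38.p14, minus strand): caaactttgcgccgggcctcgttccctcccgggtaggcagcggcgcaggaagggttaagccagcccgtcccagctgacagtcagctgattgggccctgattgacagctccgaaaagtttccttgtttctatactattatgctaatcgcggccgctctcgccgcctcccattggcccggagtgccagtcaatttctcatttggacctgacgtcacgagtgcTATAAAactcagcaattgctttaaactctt
SLC45A3, chr1:205680510-205680759 (GRCh38.p14, minus strand): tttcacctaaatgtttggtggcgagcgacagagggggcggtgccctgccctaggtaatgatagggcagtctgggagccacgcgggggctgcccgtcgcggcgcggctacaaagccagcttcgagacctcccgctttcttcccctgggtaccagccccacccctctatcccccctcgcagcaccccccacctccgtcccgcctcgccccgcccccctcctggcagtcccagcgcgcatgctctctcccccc
A match is a run of letters and not a bound site, and binding to DNA was not analysed here.

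Gene counts summed to between 20826843 and 30354666 per sample, and the control EtOH replicates were the least alike (median absolute log2 difference 0.238 over 11374 genes, 0.0765 to 0.172 in the other groups). The tests used a shared estimate of spread per gene, which does not follow this inequality between groups. BAG1 itself had 1701 and 2703 normalized counts (read counts divided by the sample's size factor) in control EtOH and 1191 and 1103 in KO EtOH, a log2 fold change of -0.94. In DHT it had 2199 and 2631 in control and 1075 and 1114 in KO (-1.14), and in FM 2117 and 1968 in control and 1452 and 1576 in KO, where the difference of -0.43 did not pass (DESeq2 adjusted p = 0.0682). Its mRNA is shared by shorter Bag-1 proteins, so that it is no direct measure of Bag-1L. Of the markers of LNCaP and luminal prostate cells, FOLH1 had between 41.9 and 176 FPKM (counts scaled to gene length and library total) over the samples, KLK3 between 48.8 and 203, HOXB13 between 50.8 and 110.2, and EPCAM between 64.4 and 105. Leukocyte markers reached at most 0.0551 FPKM in sum and endothelial markers 0.916. Basal cell markers lay between 0.490 and 0.564 in KO FM and at 0.282 or below elsewhere, nearly all of it KRT14, with 26.1 and 30.7 normalized counts in KO FM, while KRT5 was at 0 in both KO FM samples and TP63 had at most 4 counts in any sample. Fibroblast markers summed to between 1.73 and 4.32 FPKM, nearly all of it COL1A1, while COL1A2 had at most 5 counts.

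**Figure D1:**
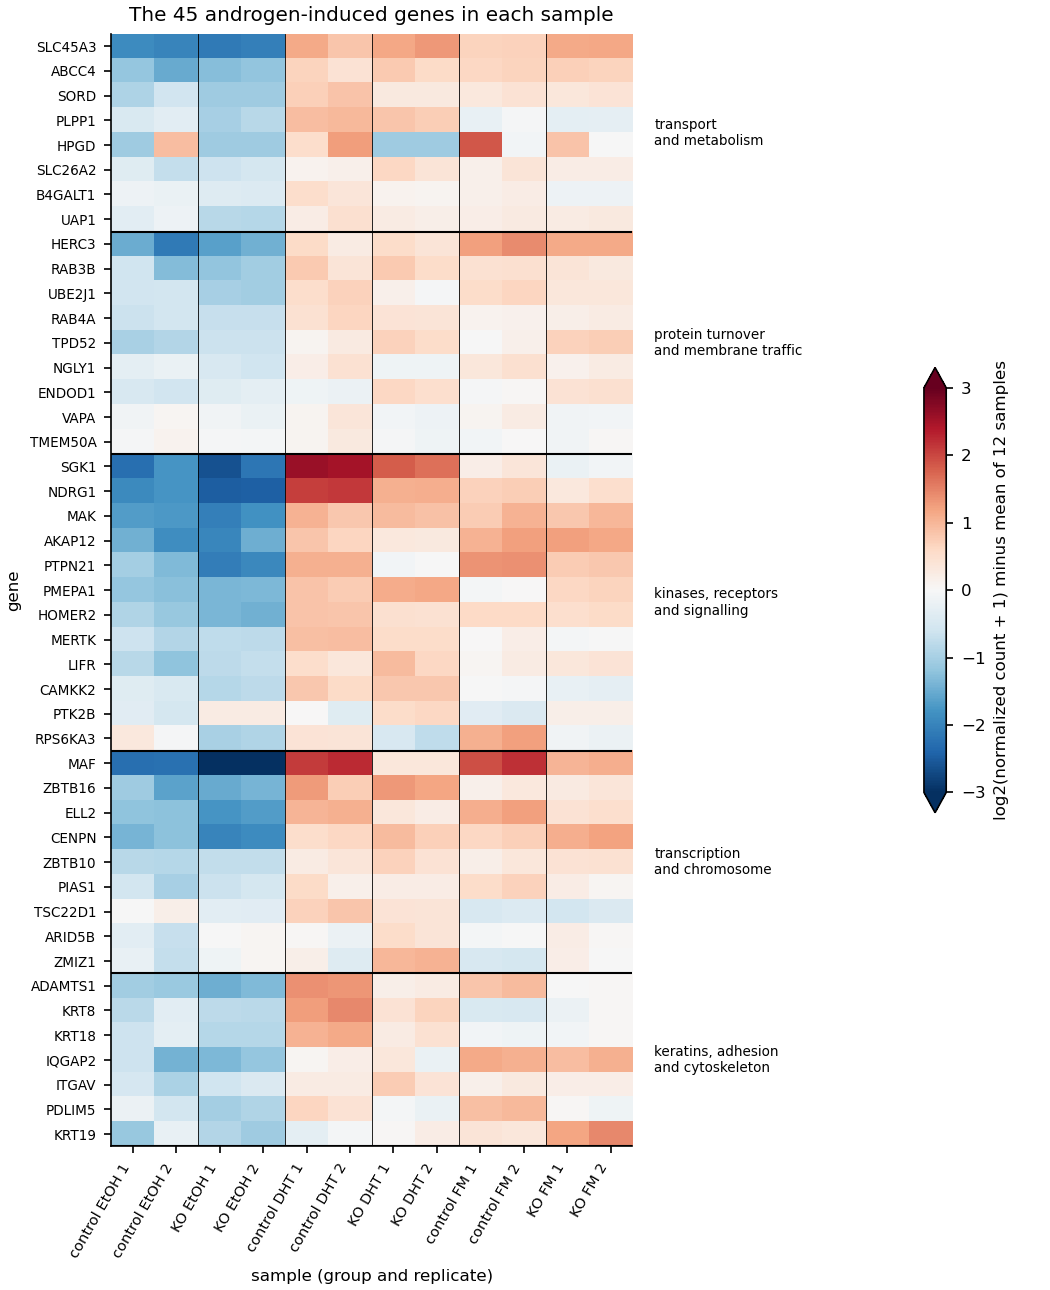
Heat map of the 45 genes (rows, grouped by role list and ordered by their DHT response in control) in the 12 samples (columns). Colour gives log2(normalized count + 1) minus the gene's mean over the samples, with values beyond 3 in either direction drawn at the end of the scale. EtOH columns are blue for most genes, DHT and FM columns red, while HPGD, near 0 counts throughout, shows no such pattern.

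How the whole set behaved was summarised by a score per sample, the mean over the 45 genes of log2(normalized count + 1) after subtracting each gene's mean over the samples. It was -0.81 and -0.86 in control EtOH and -1.09 and -1.02 in KO EtOH, the lowest of all samples. With DHT it reached 0.68 and 0.65 in control and 0.48 and 0.41 in KO, and in FM it stood at 0.40 and 0.45 in control and 0.35 and 0.37 in KO. The ranges of these 6 groups did not overlap, with the exception of control FM and KO DHT. The score rose by 1.502 with DHT in control and by 1.501 in KO, a difference of -0.00052 beside an SD between replicates of 0.0407. KO minus control was -0.22 in EtOH and -0.22 in DHT beside replicate SDs of 0.0419 and 0.0396, and -0.068 in FM (replicate SD 0.025). HPGD, at 0 to 4 counts in the starved samples, weighed on these values. Without it KO minus control was -0.20 in EtOH and -0.18 in DHT, and the difference between the DHT responses was 0.021. As a median over all members KO minus control was -0.19 in EtOH and -0.14 in DHT. The score is a description, with no test, since the genes were chosen with results known.

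**Figure D2:**
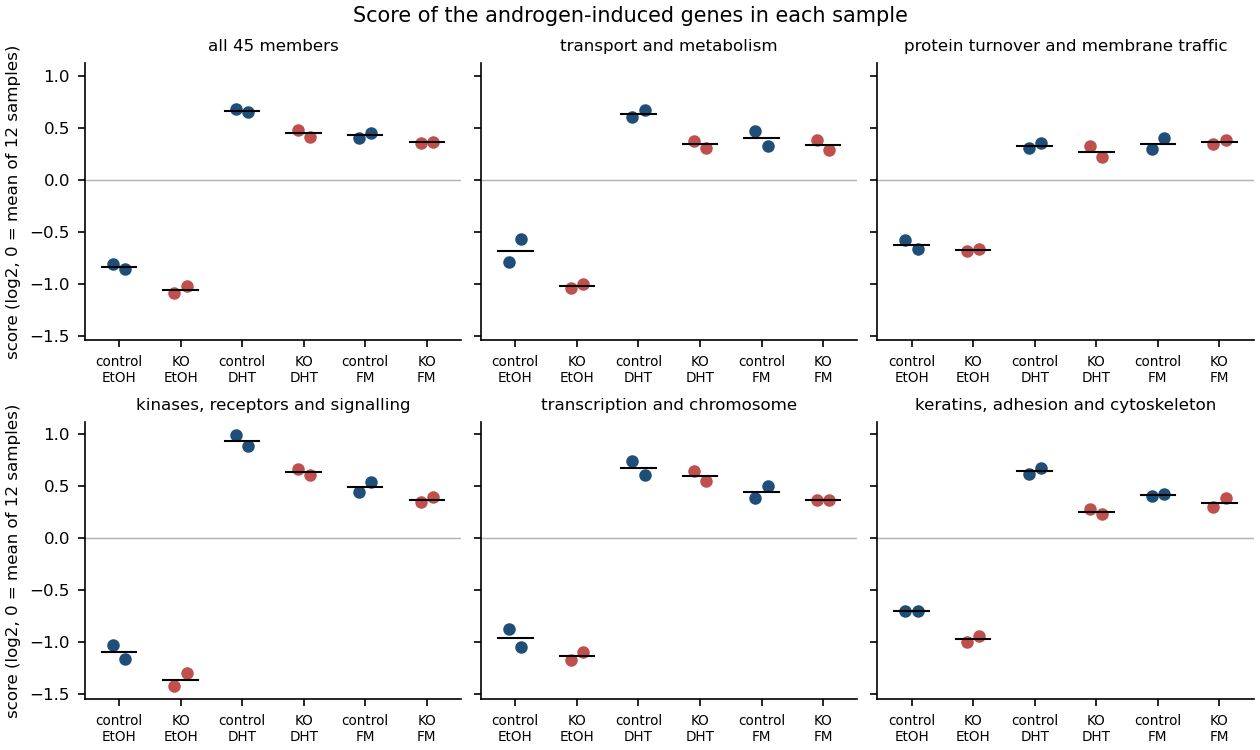
Score of all 45 genes and of each role list (panels) in each sample. The vertical axis is the mean of log2(normalized count + 1) over the genes, relative to each gene's mean over the 12 samples, points are samples (blue control, red KO) and black lines are group means. In the first panel both KO EtOH samples lie below both control EtOH samples, and both KO DHT samples below both control DHT samples.

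To ask which of these genes DHT raised in control cells, each was tested in a fit of all 12 samples across all genes. The threshold was a DESeq2 adjusted p of 0.05 or less together with a change of 1.5-fold or more. Of the 45 genes, 36 were higher with DHT and 0 lower, beside 6.04% higher and 5.37% lower among all 17535 genes tested. The median log2 fold change was 1.18 over the 45 genes (1.25 without HPGD), against -0.017 over all genes tested. The rise exceeded 2-fold in 30 genes and 4-fold in 12. The shares of all genes past these 2 folds were not worked out, so these counts have no background. Among the role lists, 7 of 8 genes of transport and metabolism rose, 6 of 9 of protein turnover and traffic, 10 of 12 of kinases, receptors and signalling, 7 of 9 of transcription and chromosome, and 6 of 7 of keratins, adhesion and cytoskeleton. The largest list median was that of kinases, receptors and signalling, 1.94, while the other 4 lay between 1.10 and 1.18. Near the threshold, the calls of UAP1 (0.59) and NGLY1 (0.59) fell under the fold minimum with edgeR (0.57 and 0.57). They also did so without replicate 1 of control EtOH (0.51 and 0.54) and without replicate 2 of control DHT (0.46 and 0.46). Those of B4GALT1 and TSC22D1 did so without replicate 1 of control DHT (0.54) and of control EtOH (0.58).

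In KO cells 37 of the 45 genes rose and 0 fell, beside 4.43% higher and 3.24% lower among all 17535 genes tested. The median log2 fold change was 1.32 (1.34 without HPGD), against -0.014 over all genes tested. A rise of over 2-fold was seen in 33 genes and of over 4-fold in 10, again with no share over all genes worked out. All 7 genes of the keratin and adhesion list rose in KO, as did 8 of 9 of transcription and chromosome, 10 of 12 of kinases, receptors and signalling, 6 of 9 of protein turnover and traffic and 6 of 8 of transport and metabolism. Both lines shared 34 of the rises, while over all genes tested a shared rise can be no more frequent than the 4.43% in KO. B4GALT1, a Golgi galactosyltransferase, and NGLY1, which strips sugar chains from misfolded proteins, passed in control and not in KO, at 0.62 and 0.59 on the log2 scale in control and 0.49 and 0.42 in KO. KRT19, ZMIZ1 and ENDOD1 passed in KO and not in control. These classes do not show that the lines differ, which has its own test further on. The 6 genes that passed in neither line were HPGD, ARID5B, PTK2B, VAPA, RPS6KA3 and TMEM50A.

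**Figure D3:**
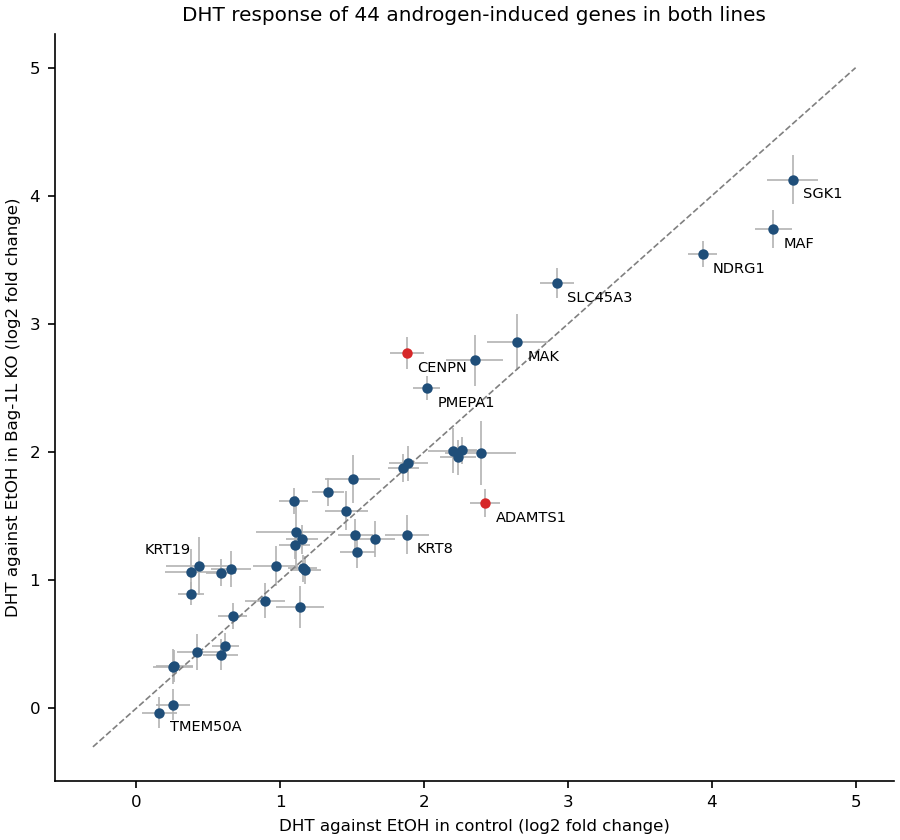
DHT response of 44 of the 45 genes in control (horizontal axis) and in KO (vertical axis), as log2 fold changes of DHT against EtOH. HPGD, at or near 0 counts, is left out. Bars are standard errors, the dashed line marks equal responses, and the 2 red points, CENPN above the line and ADAMTS1 below it, are the genes whose responses differed past the threshold.

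Kinases, receptors and signalling held the largest rise. Gene positions are on GRCh37. SGK1 (ENSG00000118515, chromosome 6, 134490386 to 134639250, minus strand), a serum- and glucocorticoid-induced kinase, had 69.5 and 99.5 normalized counts in control EtOH and 2050.4 and 1936 in control DHT, a 23.6-fold rise (log2 fold change 4.56, standard error 0.18). In KO it went from 54.3 and 74.3 to 1194 and 1072, or 17.5-fold. DHT and EtOH samples were far apart in both lines, and both KO DHT samples lay below both control DHT samples. NDRG1 (ENSG00000104419, chromosome 8, 134249418 to 134314265, minus strand), a protein linked to differentiation and stress, had 4700.0 and 5223 in control EtOH and 75186 and 76823 after DHT, while KO samples gave 3185 and 3235 and then 36980.1 and 38110.1. Its rise was 15.3-fold in control and 11.7-fold in KO, and every KO sample of either condition was lower than its control counterparts. MAK (ENSG00000111837, chromosome 6, 10762956 to 10838786, minus strand), the male germ cell-associated kinase, was scarce and rose in both lines, from 60.9 and 58.7 to 406 and 344 in control and from 46.3 and 54.6 to 378 and 359 in KO. Its DHT samples from the lines overlapped.

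The transcription list was led by MAF (ENSG00000178573, chromosome 16, 79619740 to 79634634, minus strand), a basic leucine zipper factor. It had 279 and 282 normalized counts in control EtOH and 5781 and 6288 in control DHT, a 21.5-fold rise. In KO the samples had 125 and 129 in EtOH and 1709 and 1699 in DHT, a 13.4-fold rise. MAF was thus induced strongly in both lines, while KO samples stood below control samples in both conditions. ZBTB16 (ENSG00000109906, chromosome 11, 113929763 to 114127487, plus strand), the transcriptional repressor PLZF, rose from 219 and 149 to 1108 and 774 in control and from 159 and 173 to 1142 and 1046 in KO. Its control replicates spread more than those of KO, and the lines overlapped in both conditions. At the lower end of the list stood ARID5B, a chromatin-binding factor, with log2 fold changes of 0.43 in control and 0.44 in KO, and ZMIZ1, with 0.38 and 1.06. The control value of ARID5B was 0.62 and passed without replicate 1 of control EtOH, and that of ZMIZ1 was 0.66 and passed without the same sample.

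In transport and metabolism, SLC45A3 (ENSG00000158715, chromosome 1, 205626979 to 205649637, minus strand), the prostate transporter also called prostein, had 2504 and 2358 normalized counts in control EtOH and 20367 and 16542 in control DHT. KO samples had 2123 and 2235 in EtOH, then 20726 and 22750.3 in DHT. The 7.59-fold and 9.97-fold rises were the largest of the list in both lines. ABCC4 (ENSG00000125257, chromosome 13, 95672089 to 95953729, minus strand), an efflux pump for organic anions, rose from 2559 and 2004 to 9132 and 7804 in control and from 2384 and 2542 to 9994 and 8538 in KO, 3.71-fold and 3.76-fold. HPGD, which breaks down prostaglandins, had 0 and 3 counts in control EtOH, 2 and 4 in control DHT, 0 and 0 in KO EtOH and 0 and 0 in KO DHT. These are at or near the floor of 3 counts, and the depth did not allow a change in HPGD to be seen.

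In protein turnover and traffic, HERC3 (ENSG00000138641, chromosome 4, 89513585 to 89629692, plus strand), a HECT-domain ubiquitin ligase, rose from 715 and 459 to 3000.4 and 2401 in control and from 644 and 735 to 2934 and 2634 in KO. RAB3B (ENSG00000169213, chromosome 1, 52373628 to 52456372, minus strand), a GTPase of secretory vesicles, rose from 2627 and 1607 to 6859 and 5153 in control and from 1738 and 1909 to 6766 and 5836 in KO. For both genes the lines overlapped in EtOH and in DHT. This list also held 2 of the 3 smallest changes of all 45 genes. TMEM50A (ENSG00000183726, chromosome 1, 25664808 to 25688852, plus strand), a small membrane protein, had 1144 and 1255 in control EtOH, 1245 and 1439 in control DHT, 1142 and 1126 in KO EtOH and 1138 and 1079 in KO DHT, with a log2 fold change of 0.16 in control (95% interval -0.074 to 0.40) and -0.032 in KO (-0.27 to 0.21). The DHT change of VAPA, which tethers the endoplasmic reticulum to other membranes, was 0.26 in control (0.022 to 0.49) and 0.028 in KO (-0.21 to 0.26), with 3097 and 3463 normalized counts in control EtOH against 3549.7 and 4291 with DHT, while KO had 3098 and 2920.2 and then 3143 and 2991. A rise of 1.5-fold lies outside these 4 intervals.

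Keratins, adhesion and cytoskeleton were led by ADAMTS1, a secreted metalloprotease, described with the differences between the lines. KRT8 (ENSG00000170421, chromosome 12, 53290971 to 53343738, minus strand), which pairs with KRT18 in the luminal keratin filament, rose from 12504 and 17608 to 51854 and 58988 in control and from 12659 and 12528 to 29532 and 34973 in KO, 3.68-fold and 2.56-fold. KRT18 rose 2.9-fold and 2.33-fold, reaching 12336 and 13166 in control and 7179 and 8240.1 in KO. For this pair both KO DHT samples were below both control DHT samples. KRT19 (ENSG00000171345, chromosome 17, 39679869 to 39684560, minus strand) had 164 and 308 in control EtOH, a wide spread, and 294 and 345 with DHT, and KO samples had 196 and 170.3 before and 370.3 and 419 after DHT. On the log2 scale it changed by 0.44 with DHT in control (DESeq2 adjusted p = 0.182) and by 1.11 in KO, and the control value became 0.96 without replicate 2 of control EtOH. KRT8 and KRT18 are neighbours that overlap on opposite strands, and 10.1% and 16.2% of their 50-base words also occur in transcripts of other genes, so that their counts are uncertain to that extent.

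The other members filled the range between these genes. Among kinases, receptors and signalling, AKAP12, a scaffold of protein kinase A, rose 5.26-fold in control and 3.98-fold in KO. HOMER2, a synaptic-type scaffold, rose 3.62-fold and 3.68-fold. MERTK, a receptor tyrosine kinase, rose 3.16-fold and 2.5-fold, LIFR, the receptor of leukemia inhibitory factor, 2.75-fold and 2.91-fold, and CAMKK2 2.14-fold and 3.07-fold. In transport and metabolism, SORD, which oxidises sorbitol to fructose, rose 2.87-fold and 2.56-fold, PLPP1 2.52-fold and 3.23-fold, and the sulfate transporter SLC26A2 1.58-fold and 2.13-fold. The rise of SLC26A2 in control was 0.50 on the log2 scale, under the fold minimum, without replicate 2 of control EtOH. In turnover and traffic, UBE2J1, a ubiquitin-conjugating enzyme of the endoplasmic reticulum, rose 2.26-fold and 2.12-fold, and RAB4A, a GTPase of recycling endosomes, 2.23-fold and 2.13-fold. The elongation factor ELL2 rose 4.81-fold and 4.04-fold, the zinc finger gene ZBTB10 2.22-fold and 2.5-fold, and PIAS1, a SUMO ligase, 2.2-fold and 1.73-fold. The integrin subunit ITGAV rose 1.96-fold and 2.16-fold, and IQGAP2 2.16-fold and 2.59-fold. Each of these genes passed the threshold in both lines. Genes on the opposite strand overlap 32.7% of the exon bases of PIAS1 and 24.9% of those of PLPP1, which leaves their counts uncertain if strand was not used.

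Whether the lines differed in their DHT response was tested gene by gene as the difference of the log2 fold changes. It passed for 1 of the 45 genes with a larger response in KO and for 1 with a smaller response, beside 0.223% and 0.185% of 13478 genes tested. The median difference over the 45 genes was 0.02, with 24 values above 0, and across the 45 genes the responses of the lines correlated at a Pearson's r of 0.923 (a description over genes, which are not replicates). For 19 genes the 95% interval of the difference stayed within 1.5-fold in either direction. The interval left out 0 for 14 genes, of which 3 had a DESeq2 adjusted p of at most 0.05 and 2 also reached the fold minimum. These intervals are not adjusted for the number of genes tested. The share of all genes whose interval left out 0 was not worked out, so the 14 have no background.

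CENPN (ENSG00000166451, chromosome 16, 81040157 to 81066719, plus strand), a centromere protein, gained response in KO. It had 773 and 865 normalized counts in control EtOH rising to 2929 and 3111 in control DHT, while KO went from 512 and 543 in EtOH to 3881 and 3332 in DHT. The log2 fold changes were 1.88 and 2.77, with a difference of 0.89 (standard error 0.17, DESeq2 adjusted p = 0.000171). KO samples were below control samples in EtOH and above them in DHT. Part of the gene, 12.6% of its exon bases, is shared with another gene on its strand, which leaves its count uncertain to that extent. ADAMTS1 (ENSG00000154734, chromosome 21, 28208074 to 28217728, minus strand) rose in both lines but less in KO. It had 729 and 702 in control EtOH, 3899 and 3787 in control DHT, 549 and 600.4 in KO EtOH and 1707 and 1789.9 in KO DHT. Its responses were 2.42 and 1.60, with a difference of -0.82 (standard error 0.15, DESeq2 adjusted p = 6.23e-05). KO samples were below control samples in both conditions, by more in DHT. Without replicate 2 of KO EtOH the difference was -0.75 with an adjusted p of 0.16 and no longer passed. ENDOD1, an endonuclease-domain protein, had a difference of 0.51 (DESeq2 adjusted p = 0.018) and stayed under the fold minimum. Leaving out 1 control sample let further differences pass: KRT8 (-0.79), MAF (-0.69) and SLC26A2 (0.59) without replicate 2 of control EtOH, KRT19 (1.06) without its replicate 1, CAMKK2 (0.65) and ZMIZ1 (0.99) without replicate 1 of control DHT, and UAP1 (0.60) without its replicate 2.

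**Figure D4:**
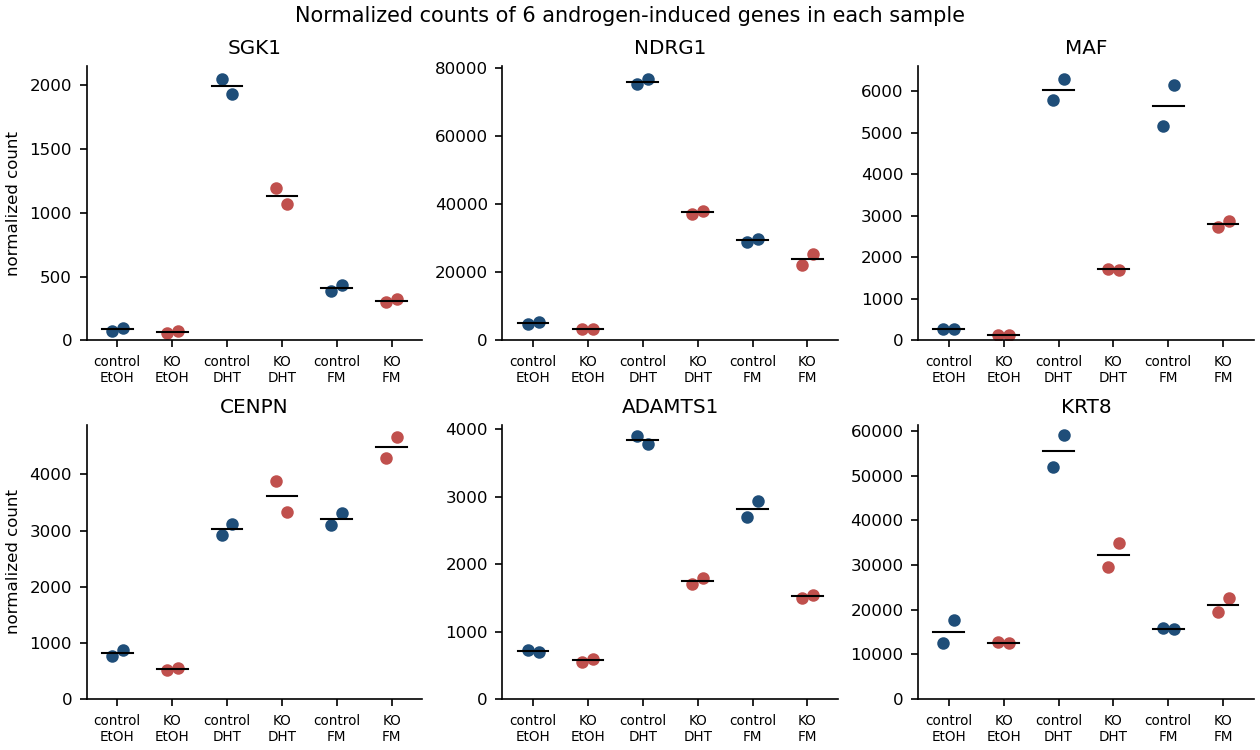
Normalized counts (vertical axes, from 0) of 6 of the genes in each sample, with points for samples (blue control, red KO) and black lines for group means. CENPN in KO lies below control in EtOH and above it in DHT and FM, ADAMTS1, MAF and NDRG1 in KO lie below control in all 3 conditions, and SGK1 and KRT8 are highest in control DHT.

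Levels were then compared between the lines within each condition. In EtOH 1 gene of the 45 was higher in KO and 7 were lower, beside 2.80% and 2.31% of 16521 genes tested. In DHT 3 were higher and 10 lower, beside 4.66% and 3.32% of 16014 genes. In FM 4 were higher and 5 lower, beside 5.41% and 2.60% of 15000 genes. The median log2 fold change over the 45 genes was -0.24 in EtOH, -0.16 in DHT and -0.041 in FM, against -0.015, -0.018 and -0.014 over all genes tested. In all, 18 genes passed in at least 1 condition. MAF, RPS6KA3 and PDLIM5 were lower in KO in all 3, and no gene was higher in all 3. The shares of all genes that passed in any or in all of the conditions were not worked out, so these joint counts have no background. In EtOH the count of lower genes fell to 4 without replicate 2 of control EtOH, and the count of higher genes rose to 4 without its replicate 1.

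**Figure D5:**
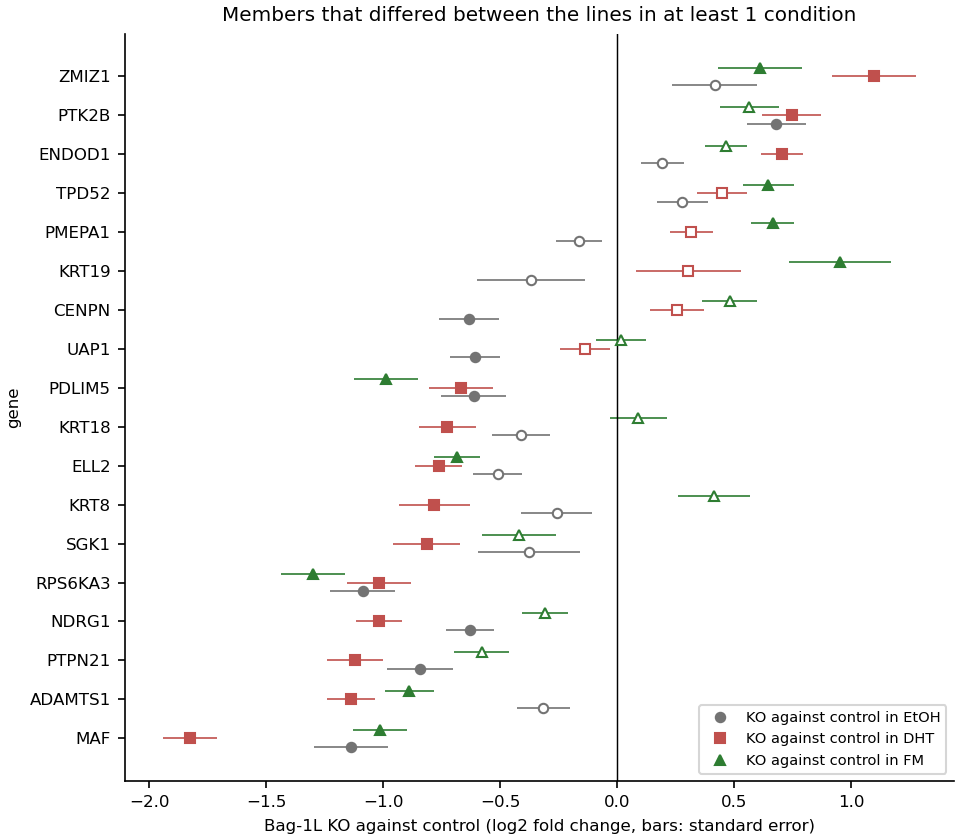
Log2 fold changes of KO against control for the 18 genes that passed in at least 1 condition (rows), for EtOH (grey circles), DHT (red squares) and FM (green triangles). Bars are standard errors and filled symbols passed the threshold. MAF, RPS6KA3 and PDLIM5 are filled and below 0 in all 3 conditions, ZMIZ1 and PTK2B are above 0 in all 3, and CENPN changes side between EtOH and the other conditions.

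Among the lower genes, MAF differed most in DHT, by -1.82 on the log2 scale (standard error 0.12), with -1.14 in EtOH and -1.01 in FM, where it had 5148 and 6151 normalized counts in control and 2730.0 and 2868 in KO. RPS6KA3 (ENSG00000177189, chromosome X, 20168029 to 20285637, minus strand), the ribosomal S6 kinase RSK2, had 3826 and 3010.0 in control and 1566 and 1653 in KO with EtOH, 4116 and 4056 in control and 2221 and 1816 in KO with DHT, and 6467 and 7274 in control and 2844 and 2738 in KO with FM. Its lines did not overlap in any condition, with differences of -1.09, -1.02 and -1.30, while its change with DHT was 0.26 in control and 0.33 in KO and did not pass. PTPN21 (ENSG00000070778, chromosome 14, 88932122 to 89021351, minus strand), a protein tyrosine phosphatase, had 432 and 349 in control and 208 and 228 in KO with EtOH, 1852 and 1839.9 in control and 827 and 872 in KO with DHT, and 2246 and 2279 in control and 1488 and 1542 in KO with FM. Its differences were -0.84, -1.12 and -0.58, the last just under the fold minimum, although DHT raised it in both lines. PDLIM5 (ENSG00000163110, chromosome 4, 95373008 to 95589378, plus strand), an actin-associated scaffold, had 2819.6 and 2186 in control and 1564 and 1708 in KO with EtOH, 4985 and 4323 in control and 3081 and 2779.9 in KO with DHT, and 5953 and 6293 in control and 3245 and 2932 in KO with FM. Its EtOH difference of -0.61 was -0.42 without replicate 1 of control EtOH and -0.55 without replicate 1 of KO EtOH, and its DHT difference of -0.67 was -0.56 without replicate 1 of control DHT, all under the minimum.

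NDRG1 and SGK1 were lower in KO DHT, with log2 fold changes of -1.02 and -0.81, as were ELL2 at -0.76 and KRT8 and KRT18 at -0.78 and -0.73. ADAMTS1 differed by -1.14 in DHT and -0.89 in FM, where it had 2699 and 2933 normalized counts in control and 1497 and 1549 in KO. UAP1 (ENSG00000117143, chromosome 1, 162531512 to 162571030, plus strand), which makes the sugar donor for N-acetylglucosamine chains, passed in EtOH and in neither other condition, at -0.61, with 10184 and 11312 in control and 7106 and 7001 in KO. In DHT it had 14841 and 17510.3 in control and 15025 and 14385 in KO, and in FM 14599 and 15327 in control and 14863 and 15441 in KO, so that the lines overlapped in both. Without replicate 2 of control EtOH the EtOH differences of UAP1, NDRG1 and CENPN were -0.53, -0.55 and -0.55, under the minimum, against -0.61, -0.63 and -0.63 with it.

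Fewer genes were higher in KO. PTK2B (ENSG00000120899, chromosome 8, 27168999 to 27316908, plus strand), the focal adhesion kinase PYK2, had 2848 and 2507 in control and 4285 and 4296 in KO with EtOH, 3616 and 2823 in control and 5260.3 and 5544 in KO with DHT, and 2854 and 2653 in control and 4069 and 4080.5 in KO with FM. The lines did not overlap, with log2 fold changes of 0.68 for EtOH, 0.75 for DHT and 0.57 for FM, the last under the fold minimum, and the DHT difference was 0.58 without replicate 2 of control DHT. ZMIZ1 (ENSG00000108175, chromosome 10, 80828723 to 81076276, plus strand), a PIAS-like transcriptional coactivator, had 3628 and 2560.4 in control and 3879 and 4386 in KO with EtOH, 4819.7 and 3257 in control and 8511 and 8773 in KO with DHT, and 3010.4 and 2917 in control and 4860.3 and 4191 in KO with FM. It was higher in KO by 1.10 in DHT and 0.61 in FM, and the FM call was lost without either control FM replicate or replicate 1 of KO FM (0.63, 0.59 and 0.50). ENDOD1 (ENSG00000149218, chromosome 11, 94823010 to 94865809, plus strand) had 11480.2 and 10847 in control and 12472 and 13065 in KO with EtOH, 14808 and 14329 in control and 24669 and 22863 in KO with DHT, and 15606 and 16489 in control and 21891 and 22468 in KO with FM. The lines lay apart in each condition, by 0.19, 0.71 and 0.47, and only the DHT difference passed.

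In FM the higher genes were KRT19, PMEPA1, TPD52 and ZMIZ1. KRT19 had 467 and 456 normalized counts in control FM and 818 and 971 in KO FM, a difference of 0.95, which lost its call without replicate 2 of KO FM (0.82). PMEPA1 (ENSG00000124225, chromosome 20, 56223448 to 56286592, minus strand), a membrane protein that recruits NEDD4 ubiquitin ligases, had 1740.5 and 1627 in control and 1489 and 1518 in KO with EtOH, 7045 and 6612 in control and 8389.8 and 8628 in KO with DHT, and 3719 and 3919.9 in control and 5935 and 6184 in KO with FM. Its KO samples thus moved from below control in EtOH to above it in DHT and FM. TPD52 (ENSG00000076554, chromosome 8, 80946980 to 81143467, minus strand), a protein of vesicle traffic often raised in tumours, had 3093 and 3316 in control and 3885 and 3895 in KO with EtOH, 6459 and 7297 in control and 9902 and 8884 in KO with DHT, and 6068 and 6761 in control and 9902 and 10181 in KO with FM. Every KO sample was above its control counterparts, with differences of 0.28, 0.45 and 0.65, and the FM value was 0.56 without replicate 1 of control FM, under the minimum.

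Full medium, which carries the hormones of serum, was set against EtOH. The EtOH samples also had 72 h of starvation and 16 h of vehicle, so that hormone and the other differences in culture cannot be told apart. In control 31 of the 45 genes were higher in FM and 0 lower, beside 9.81% and 11.5% of 18549 genes tested. In KO 36 were higher and 0 lower, beside 9.61% and 9.68%. The median change over the 45 genes, on the log2 scale, was 1.12 for control and 1.19 for KO, against -0.0093 and -0.0067 over all genes tested. The FM and DHT responses share their EtOH samples, so that they are given side by side only. In control 29 genes passed in both, 7 with DHT only (KRT8, KRT18, PLPP1, CAMKK2, TSC22D1, B4GALT1 and UAP1) and 2 with FM only (KRT19 and RPS6KA3), and 28 genes passed in both media in both lines. The shares of all genes in these classes were not worked out. The classes rest on the threshold and do not by themselves show that a gene's DHT and FM responses differ. UAP1 had 14841 and 17510 normalized counts in control DHT and 14599 and 15327 in control FM, which overlapped. The DHT change of KRT19 in control was 0.44, and 0.96 without replicate 2 of control EtOH. TSC22D1, a leucine zipper protein induced by TGF-beta, was the gene with the lowest FM response, -0.54 in control and -0.16 in KO, with 5053 and 5753 normalized counts in control EtOH, 8225 and 8975 once given DHT but 3661 and 3792 when grown in FM. Without replicate 1 of control EtOH its FM response in control was -0.63 and passed as a fall.

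A direct comparison of DHT with FM was added after these values had been seen. In control 10 of the 45 genes were higher in DHT and 3 lower, beside 10.6% and 8.41% of 16521 genes tested, and in KO 8 were higher and 6 lower, beside 6.80% and 6.28%. SGK1 had 389.8 and 434 normalized counts in control FM and 298 and 320.0 in KO FM, and was higher in DHT by 2.27 and 1.88. NDRG1 had 28859.6 and 29835 in control FM and 22238 and 25236 in KO FM, with differences of 1.37 and 0.66. KRT8 had 15946 and 15561 in control FM and 19472 and 22538 in KO FM, with differences of 1.81 and 0.62. All 3 had their highest samples in control DHT. PLPP1, a lipid phosphatase, and CAMKK2, a kinase upstream of AMPK, were also higher in DHT, by 1.07 and 0.71 in control and 1.06 and 1.04 in KO. The genes higher in FM in both lines were HERC3, with 4742 and 5356 in control and 4429 and 4408 in KO, and differences of -0.90 and -0.67, and IQGAP2, a scaffold of small GTPases, with 239 and 228 in control and 209 and 228 in KO, and differences of -0.97 and -0.90. The KO call of IQGAP2 was lost without replicate 2 of KO DHT (-0.66) and of KO FM (-0.84), and those of NDRG1 and KRT8 without replicate 1 of KO FM (0.57 and 0.52). That of KRT8 was also lost without replicate 2 of KO DHT (0.49). KRT19 (-1.18), AKAP12, PTPN21 and MAF (-0.72) were also higher in FM in KO, and did not pass in control, where the MAF difference was 0.095. RPS6KA3 (-0.75) was higher in FM past the threshold in control only.

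The FM levels of the other named genes were as follows. MAK had 334 and 406 normalized counts in control FM and 341 and 389 in KO FM, and ZBTB16 had 515 and 574 in control and 551 and 589 in KO. Both overlapped between the lines. SLC45A3 had 14783 and 14989 in control and 20450.5 and 20773 in KO, ABCC4 had 8882 and 9208 and, in KO, 9381 and 9164, and RAB3B had 5437 and 5498 and, in KO, 5129.9 and 4862. KO samples were above control samples for SLC45A3 and below them for RAB3B, and those of ABCC4 overlapped. CENPN had 3099.9 and 3319.8 in control and 4293 and 4671 in KO, with KO above control. TMEM50A had 1107 and 1179.9 in control and 1087 and 1202 in KO, which overlapped, and VAPA had 3546 and 3962 in control and 3109 and 3157 in KO, with KO below control.

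The difference in FM response between the lines, added in the same way, was larger in KO for 5 of the 45 genes and smaller for 0, beside 0.748% and 0.640% of 12971 genes tested. It was 1.32 for KRT19, 1.11 for CENPN, 0.83 for PMEPA1, 0.63 for SLC45A3 and 0.63 for UAP1. CENPN and PMEPA1 passed in every alternative run. SLC45A3 and UAP1 each lost the call in 7 of the 8 fits that left out a single sample, and KRT19 in 5 of 8. In those fits the difference ran from 0.58 to 0.66 for SLC45A3, from 0.55 to 0.66 for UAP1 and from 0.80 to 1.33 for KRT19. Such a fit leaves 1 sample in a group, so that a lost call need not mean a smaller difference. All 3 also lost the call with edgeR, at 1.34 for KRT19, 0.65 for SLC45A3 and 0.64 for UAP1 (edgeR adjusted p of 0.0567, 0.0924 and 0.0788). The KRT19 difference moved most without replicate 2 of control EtOH, to 0.80.

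The 45 genes spanned a wide range of levels. As FPKM, group means in control DHT ran from 0.0202 (HPGD) to 299 (KRT8), with a median of 16.4, and in control EtOH the median was 9.18. After KRT8 the order in control DHT was NDRG1 at 235, PLPP1 at 210.1, SLC45A3 at 183, KRT18 at 154, UAP1 at 130.0 and ENDOD1 at 117 FPKM. In KO DHT the highest were SLC45A3 at 234, ENDOD1 at 206, PLPP1 at 204 and KRT8 at 189 FPKM. IQGAP2 and AKAP12, at 0.435 and 0.889 FPKM in control DHT, were the scarcest after HPGD, although both rose with DHT in both lines. Length here is the union of a gene's annotated exons.

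Other androgen-responsive genes outside the set, 55 listed and 54 matched, gave a background from the same pathway. With DHT 36 of 54 rose in control and 32 in KO, and 0 fell in either, with medians of 0.83 and 0.87 on the log2 scale. FKBP5, an immunophilin that binds HSP90, led the list in control with 4.02, followed by INPP4B, a phosphoinositide phosphatase, with 2.80. At the other end GPD1L had -0.55, just under the fold minimum. STEAP4, with at most 6.66 normalized counts, was fitted but received no adjusted p. NCOA4, whose matched identifier had 0 counts in every sample, could not be tested at all, so that 52 of the 54 had an adjusted p. In EtOH 2 of the 54 were higher in KO and 10 lower, in DHT 4 and 12, and in FM 5 and 6.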

How the data were processed

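RNA of 12 LNCaP samples was sequenced by the authors as stranded poly(A) libraries. The deposited files hold whole read counts per Ensembl gene, made by the authors on GRCh37; the submitters' processing notes name CASAVA 1.7, TopHat2 2.0.11 and HTSeq 0.5.3p3, while the Ensembl release and the strand setting are not given in the sources used here. Samples were grouped by their labels. After a filter of 10 counts summed over the samples, 26156 genes entered a fit with DESeq2 1.42.0 in R 4.3.3 (Wald test, a coefficient per group, Benjamini-Hochberg adjustment), with 95% intervals of the log2 fold change. Low counts were read against a floor of 3 counts, 0.0988 to 0.144 CPM, which covers counting error only. The 45 members, the gene lists and the tests were chosen with earlier results of these data known. Genes given a value in every sample were the 6 largest and 3 smallest DHT changes in control, those with a different DHT response, the 3 largest and 3 smallest passing differences between the lines in each condition, and the 2 largest DHT changes of each role list. Other genes were named after their values were seen. Comparisons of DHT with FM and of the FM responses were added after seeing the data. Alternatives were edgeR 4.0.16 (quasi-likelihood, TMM), TMM size factors, no filter, only the groups compared, a replicate block, no fold minimum, other scores and each sample left out. Scripts were tested on simulated data. Promoter sequences came from RefSeq (GRCh38.p14) and gene positions from the GRCh37 annotation, and the builds were not mixed. Some marker genes are not reported here.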

Additional observations from a re-analysis of the deposited data

Results flagged for a closer look

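In 7 results the response of a gene differed between the lines by a test of the difference itself. For the DHT response the difference, KO minus control on the log2 scale, was 0.89 for CENPN and -0.82 for ADAMTS1. For the FM response it was 1.11 for CENPN, 1.32 for KRT19, 0.83 for PMEPA1, 0.63 for SLC45A3 and 0.63 for UAP1. The FM differences of SLC45A3, UAP1 and KRT19 did not pass with edgeR, nor in 7, 7 and 5 of the 8 fits without a single sample. The DHT difference of ADAMTS1 was -0.75 without replicate 2 of KO EtOH and did not pass. A fit without a sample leaves 1 in its group, so that a lost call need not mean a smaller difference.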

How the results depend on the processing

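The counts of genes that rose with DHT or FM, and of those that differed between the lines in DHT or FM, stayed within 1.5 times under edgeR, TMM size factors, no filter and only the groups compared, except that the larger FM response in KO held for 2 genes with edgeR. With each sample left out in turn, the larger DHT response in KO held for 1 to 3 genes and the smaller for 0 to 3, KO EtOH was higher in 1 to 4 and lower in 4 to 8, FM was lower in control in 0 to 1, and the FM response was larger in 2 to 6 and smaller in 0 to 3. With no fold minimum, KO EtOH was higher in 2 and lower in 14, KO DHT in 7 and 18, KO FM in 9 and 10, DHT against FM in 16 and 6 in control and 15 and 10 in KO, the DHT response was larger in KO in 2, FM was lower in control in 1, and the FM response was smaller in KO in 1. The shares of all genes that passed with no fold minimum were not worked out. Score differences with 10 added to counts were 1.46 for DHT and 1.23 for FM in control and 1.36 for FM in KO. As medians over genes they were 1.33 and 1.37 for DHT in control and KO, 0.046 for the difference of these, which turned its sign, -0.14 for KO in DHT, -0.0024 for KO in FM, 1.03 and 1.21 for FM, and 0.30 and 0.16 for DHT against FM. With each gene divided by its SD they were 1.73 and 1.74 for DHT, 1.38 and 1.54 for FM, and 0.35 and 0.19 for DHT against FM. Over genes with a mean count of 100 or more, which left out HPGD only, KO in DHT was -0.18, and a score without HPGD, chosen after seeing the data, gave the same value. The cause of these shifts was not tested. Replicate numbers share only a label (mean r of deviations 0.033, from -0.41 to 0.69, positive in 8 of 15 pairs). With the replicate block 36 genes rose with DHT in control and 37 in KO, and the FM response of KRT8 differed (0.65, DESeq2 adjusted p = 0.0231).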
